A study of Mus musculus with 8 samples.

Results

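The regulators of mitochondrial energy metabolism built around the PGC-1 coactivators are described here in hearts that lack Elmsan1 in cardiomyocytes. The group holds 10 genes, chosen by symbol from knowledge of the pathway and with earlier results of these data known. They are the coactivators Ppargc1a, Ppargc1b and Perm1, the fatty acid receptors Ppara and Ppard with their partner Rxra, the estrogen-related receptors Esrra, Esrrb and Esrrg, and the corepressor Nrip1. All 10 were found among the 45706 gene identifiers of the table, and all 10 passed the filter on low counts that left 15289 genes for testing. Total heart RNA was sequenced from 8-week-old male mice of 3 genotypes. The conditional knockout (cKO, n = 4) was Elmsan1 fl/fl;aMHC-Cre+/-, in which the cardiac alpha-myosin heavy chain promoter drives Cre recombinase in cardiomyocytes. The first control carried the floxed alleles without Cre (Elmsan1 fl/fl, n = 2) and the other carried Cre without floxed alleles (aMHC-Cre+/-, n = 2). The cKO hearts thus share the floxed alleles with the floxed control and the Cre transgene with the Cre control, and the other cell types of the heart are not targeted by this promoter. Elmsan1, also called Mideas, encodes a scaffold of a histone deacetylase complex. The labels number the hearts within a group but do not say whether they came from separate litters or days, so the p-values below measure the spread between these samples.

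PGC-1 coactivators do not bind DNA themselves. They dock on nuclear receptors and other transcription factors and recruit enzymes that open chromatin. In cardiomyocytes the PPARs, each paired with a retinoid X receptor, switch on uptake and oxidation of fatty acids, and the estrogen-related receptors switch on the citric acid cycle, the respiratory chain and ATP synthesis. Perm1 is a muscle protein induced by PGC-1 and the estrogen-related receptors, and Nrip1 (RIP140) opposes the coactivators on the same receptors.

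The libraries held between 17509564 and 25833259 estimated counts. Elmsan1 itself stood at 15.2, 15.5, 15.3 and 12.0 CPM (counts scaled to a common library total) in cKO replicates 1 to 4, at 27.6 and 25.6 CPM in the floxed hearts and at 28.6 and 25.3 CPM in the Cre hearts. It was lower in all 4 cKO libraries than in all 4 controls, by a log2 fold change of -0.89 (SE 0.11, adjusted p = 8.94e-05, quasi-likelihood test of edgeR, Benjamini-Hochberg adjusted). The labels do not say which exons are floxed. The defining cardiomyocyte genes, Myh6 and Tnnt2 among them, summed to 49457 to 57441 CPM in cKO hearts and 52645 to 57346 CPM in controls, with 2 of 8 lower and 3 of 8 higher by the test. The summed markers were higher in every cKO library than in every control for endothelium (1040.2 to 1215 against 764 to 844 CPM), macrophages (149.6 to 193 against 106 to 128 CPM) and atrial muscle (4411 to 9838 against 1653 to 3057 CPM). Of the tested markers 4 of 6, 3 of 6 and 4 of 4 rose, respectively, and 1 endothelial marker fell. The same held for the markers listed for brown fat (884 to 1235 against 529 to 634 CPM, mostly Cox8b, with 1 of 4 risen). It also held for those listed for skeletal muscle (2520.1 to 3098 against 1628 to 1920.3 CPM, with 2 of 2 tested risen). However, Elovl3 and Myh1 stayed under 1 CPM and Myh4 was at 0 in every library. Nearly all of the skeletal muscle sum thus came from Ckm and Tnnt3. Whether heart muscle cells supplied the transcripts in these sums was not tested. The sums for fibroblasts, smooth muscle, white fat and red cells overlapped between the genotypes. The part of these differences in the results below was not tested, and in whole-heart RNA fewer cells of a type and less RNA per cell cannot be told apart. The cKO replicates 3 and 4 also had the highest levels of the fat cell genes Ucp1 and Adipoq, and results that move without them are given both ways.

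In cKO hearts 9 of the 10 regulators fell and none rose, against 26.5% of all tested genes that fell and 52.1% called in either direction. Their median log2 fold change was -1.07, beside 0.04 over all genes tested. The group and the gene lists below were chosen with earlier results of these data known, so such counts are descriptive. The falls ran from 6.80-fold for Ppara, the receptor that carries fatty acid signals, down to 1.23-fold for Ppard, and Esrra alone did not pass the test. For 9 of the 10 genes every cKO library lay below every control library, an arrangement found in 25.9% of tested genes. A call with a log2 fold change of -1 or less was made for 5 regulators, against 6.03% of tested genes: Ppara, Esrrg, Ppargc1a, Esrrb and Perm1.

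**Figure D1:**
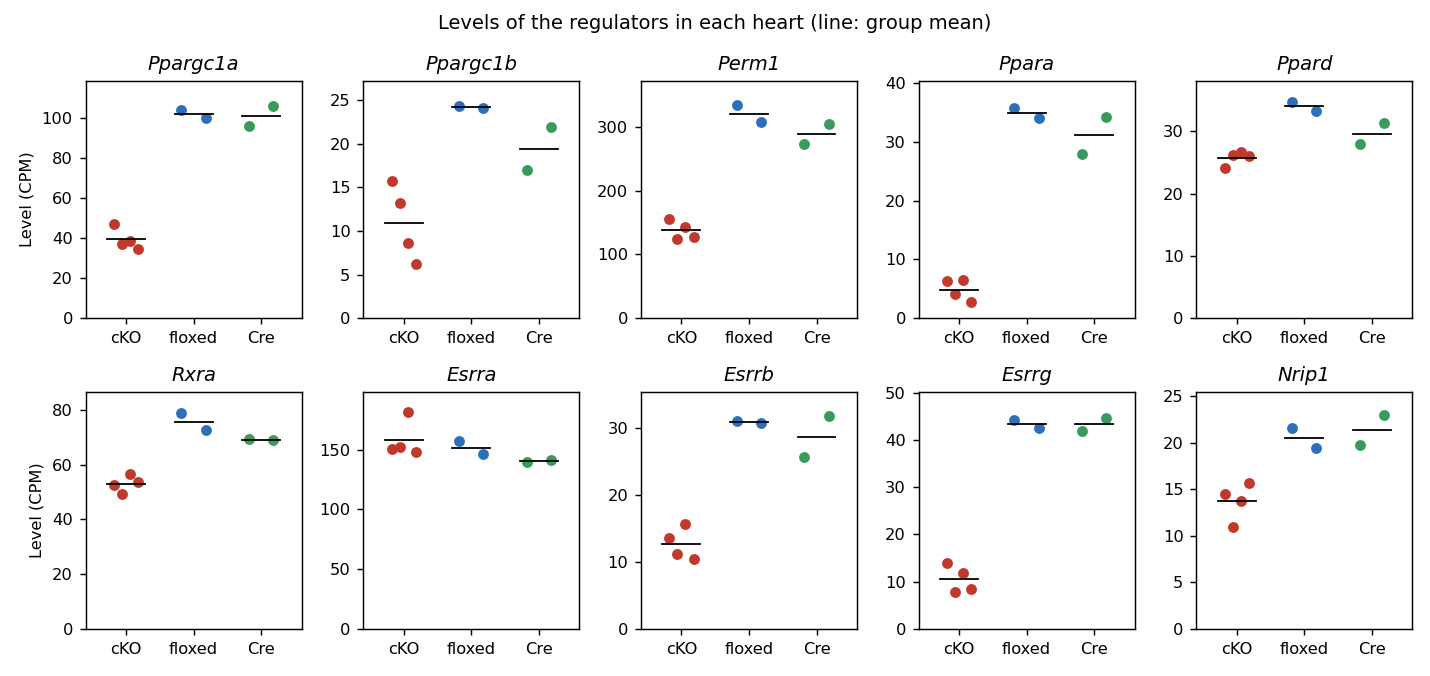
Level of each of the 10 regulators in each of the 8 libraries, in CPM, 1 panel per gene with the axis from 0, with cKO, floxed and Cre hearts in separate colours and a line at each group mean. The cKO points lie below all control points for every gene except Esrra, whose groups overlap.

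The promoters of 4 regulators that fell, 1 or more from each of the coactivators, PPARs and estrogen-related receptors, are shown beside that of Esrra, which did not pass the test, so that members that moved together can be read against the member that did not. Each window holds the 250 bases before a RefSeq start site (GRCm38.p6), 5′ to 3′ on the gene's strand. Capitals mark matches on either strand to 4 motifs: AAGGTCA, the core bound by estrogen-related receptors; TGACG, the core of the cyclic AMP response element; GGGCGG, the GC box; and TATAAA, the TATA box. The windows are Ppara at chr15:85735526-85735775 (plus strand), Ppargc1a at chr5:51567726-51567975 (minus strand), Perm1 at chr4:156215677-156215926 (plus strand), the most upstream of 4 Esrrg starts at chr1:187608756-187609005 (plus strand), and Esrra at chr19:6921809-6922058 (minus strand). By the GENCODE positions given for the genes below, Ppara starts at 85734983, so its whole window lies inside that gene. Much of the Esrrg window (gene start 187608791) and the end of the Perm1 window (gene start 156215868) also lie inside their genes. The Ppargc1a and Esrra windows reach theirs only at the edge.
Ppara: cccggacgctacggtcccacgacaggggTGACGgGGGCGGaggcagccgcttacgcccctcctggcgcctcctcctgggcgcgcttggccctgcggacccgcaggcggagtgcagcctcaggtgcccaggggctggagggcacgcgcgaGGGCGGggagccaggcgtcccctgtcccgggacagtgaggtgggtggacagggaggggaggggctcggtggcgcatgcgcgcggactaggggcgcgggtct
Ppargc1a: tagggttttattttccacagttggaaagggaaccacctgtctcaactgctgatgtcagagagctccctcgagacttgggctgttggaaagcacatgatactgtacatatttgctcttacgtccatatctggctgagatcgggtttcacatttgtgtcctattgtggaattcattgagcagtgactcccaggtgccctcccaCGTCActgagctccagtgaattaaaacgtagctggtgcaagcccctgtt
Perm1: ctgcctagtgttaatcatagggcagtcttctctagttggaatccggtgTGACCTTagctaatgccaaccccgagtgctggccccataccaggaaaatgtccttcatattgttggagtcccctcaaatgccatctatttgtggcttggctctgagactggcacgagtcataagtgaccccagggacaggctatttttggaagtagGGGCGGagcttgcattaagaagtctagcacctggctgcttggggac
Esrrg: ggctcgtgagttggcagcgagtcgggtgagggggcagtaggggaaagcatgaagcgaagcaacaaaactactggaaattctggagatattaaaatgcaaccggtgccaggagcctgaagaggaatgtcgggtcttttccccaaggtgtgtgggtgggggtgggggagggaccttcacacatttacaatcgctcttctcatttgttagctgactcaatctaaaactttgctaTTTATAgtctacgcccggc
Esrra: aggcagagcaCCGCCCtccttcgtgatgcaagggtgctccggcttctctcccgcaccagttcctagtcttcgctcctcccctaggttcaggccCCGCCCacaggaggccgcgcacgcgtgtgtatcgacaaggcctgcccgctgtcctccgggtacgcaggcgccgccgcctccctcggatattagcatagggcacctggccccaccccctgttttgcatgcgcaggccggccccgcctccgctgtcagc

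The Ppara and Esrra windows were rich in G and C (76.4% and 68.4%) and held 27 and 22 CG dinucleotides. Those of Ppargc1a, Perm1 and the upstream Esrrg start held 48%, 51.2% and 50.8% G and C with 5, 4 and 9 CG dinucleotides. Among these 5 windows Esrra lay between Ppara and the other genes that fell. The other Esrrg starts held 41.6%, 63.6% and 61.2% G and C. Which start is used in these hearts was not measured for any of the genes. Whether base composition goes with the falls was not tested. The estrogen-related receptor core was found in Perm1, on the opposite strand 202 to 196 bases before the start, and in 1 of 2 Rxra windows. Among 32851 windows of the same length 4.08% held it, against 2 of the 15 windows of the 9 members with an entry. The TGACG core lay 49 to 45 bases before the RefSeq start of Ppargc1a and 222 to 218 bases before that of Ppara. It occurred in an Esrrb window as well. These are 3 of the 15 member windows, against 17.8% of all windows. GC boxes, present in 32.7% of all windows, occurred in 8 member windows. Those of Ppara, Perm1 and Esrra were among them, and so were windows at Esrrg starts other than the one shown. The TATA box match of Esrrg, 19 to 14 bases before the start on the opposite strand, was the only one among the member windows, and 12.4% of all windows hold it. These matches describe the letters of the windows and are not measured binding sites.

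Among the coactivators, Ppargc1a (PGC-1alpha, chr5:51454250-51567726), the member that responds to fasting, cold and exercise, stood at 47.2, 37.1, 38.6 and 34.7 CPM in the cKO hearts. The floxed hearts held 104 and 99.7 CPM and the Cre hearts 95.8 and 106 CPM. The highest cKO heart lay far below the lowest control. Its mean fell from 101 ± 4.52 to 39.4 ± 5.48 CPM (SD, n = 4 each), a log2 fold change of -1.36 (SE 0.11, adjusted p = 1.71e-05, quasi-likelihood test of edgeR, Benjamini-Hochberg adjusted). The fall was the same size against floxed hearts (-1.37) and Cre hearts (-1.36), which share the cKO libraries.

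Ppargc1b (PGC-1beta), the relative linked to basal mitochondrial content, varied more. Its cKO levels were 15.8, 13.2, 8.61 and 6.21 CPM, against 24.3 and 24.1 CPM in floxed and 16.97 and 21.9 CPM in Cre hearts. The groups did not overlap, but the highest cKO and the lowest Cre library lay close together. Ppargc1b fell 1.99-fold (SE 0.27 on the log2 scale, adjusted p = 0.0139, quasi-likelihood test of edgeR, Benjamini-Hochberg adjusted). It was called against floxed hearts (-1.15, adjusted p = 0.0183 by the same test) and not against Cre hearts (-0.84, adjusted p = 0.0648). The lowest levels were those of cKO replicates 3 and 4, the libraries with the highest fat cell genes, and without them the log2 fold change was -0.58 (adjusted p = 0.00743). With no filter on low counts the call against all controls was lost (adjusted p = 0.0652). The call against floxed hearts was lost without floxed replicate 1 or 2 (adjusted p = 0.0948 and 0.0858). Against Cre hearts Ppargc1b was called by DESeq2 (adjusted p = 0.0164), by limma voom (0.0333), without the robust fit (0.0429) and without cKO replicate 1 or 4 (0.0124 and 0.0455).

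Perm1 (chr4:156215868-156221307) was the most abundant of the coactivators per kilobase. Its cKO levels were 156, 124, 144 and 127 CPM, against 334 and 307 CPM in floxed and 272 and 304 CPM in Cre hearts. All 4 cKO values lay far below the lowest control. Its mean fell from 304 ± 25.1 to 138 ± 14.8 CPM (SD, n = 4 each), a log2 fold change of -1.14 (SE 0.10, adjusted p = 2.29e-05, quasi-likelihood test of edgeR, Benjamini-Hochberg adjusted). The falls against floxed and Cre hearts were -1.22 and -1.07.

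Ppara (chr15:85734983-85802819), the main fatty acid receptor of the heart and liver, fell furthest of the group. The cKO hearts held 6.26, 4.05, 6.46 and 2.74 CPM, against 35.7 and 34.1 CPM in floxed and 28.02 and 34.3 CPM in Cre hearts. Every cKO heart lay far below the lowest control. The 4 cKO values rest on 119, 82, 151 and 72 estimated counts, so Ppara was measured less precisely there than in the controls, which had at least 685. Its log2 fold change was -2.76 (SE 0.24, adjusted p = 4.19e-05, quasi-likelihood test of edgeR, Benjamini-Hochberg adjusted), and 0.288% of tested genes had a lower one. Against floxed and Cre hearts Ppara was 7.20-fold and 6.42-fold lower.

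Ppard (chr17:28232700-28301474), the PPAR found in most tissues, moved little. Its cKO levels were 24.1, 26.2, 26.7 and 26.01 CPM, against 34.7 and 33.3 CPM in floxed and 27.9 and 31.3 CPM in Cre hearts. The groups did not overlap, and the gap to the lowest Cre heart was small. The log2 fold change was -0.30 (SE 0.08, adjusted p = 0.0116, quasi-likelihood test of edgeR, Benjamini-Hochberg adjusted), called against floxed hearts (-0.40, adjusted p = 0.00882) and not against Cre hearts (-0.20, adjusted p = 0.142). The call was lost with upper-quartile scaling (-0.18, adjusted p = 0.0719), with scaling by library size alone (-0.17, adjusted p = 0.16) and without floxed replicate 1 (-0.29, adjusted p = 0.0504).

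Rxra (chr2:27676440-27762957) encodes the retinoid X receptor that pairs with the PPARs on DNA. Its cKO levels were 52.7, 49.1, 56.5 and 53.5 CPM, against 78.7 and 72.7 CPM in floxed and 69.3 and 68.9 CPM in Cre hearts. The groups were well apart, and the values within each were close. The log2 fold change was -0.45 (SE 0.08, adjusted p = 0.000807, quasi-likelihood test of edgeR, Benjamini-Hochberg adjusted). The fall was -0.52 against floxed and -0.38 against Cre hearts. The call against Cre hearts was lost with scaling by library size alone (-0.27, adjusted p = 0.112) and without Cre replicate 1 (adjusted p = 0.0558).

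The estrogen-related receptors split. Esrrg (chr1:187608791-188214885), the member known for the switch of the heart to oxidative metabolism around birth, stood at 14.0, 7.81, 11.8 and 8.38 CPM in cKO hearts. The floxed hearts held 44.2 and 42.5 CPM and the Cre hearts 41.95 and 44.6 CPM. The 4 controls were nearly equal, and every cKO heart lay far below them. Its log2 fold change was -2.05 (SE 0.17, adjusted p = 2.30e-05, quasi-likelihood test of edgeR, Benjamini-Hochberg adjusted), the same against either control.

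Esrrb (chr12:86361117-86521628), better known from stem cells and the inner ear, was measured at 13.6, 11.2, 15.6 and 10.4 CPM in cKO hearts. The floxed hearts held 31.0 and 30.8 CPM and the Cre hearts 25.7 and 31.7 CPM. No cKO value reached the control range. The log2 fold change was -1.23 (SE 0.14, adjusted p = 5.45e-05, quasi-likelihood test of edgeR, Benjamini-Hochberg adjusted).

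Esrra (chr19:6910977-6921813), which encodes the most widely expressed of these receptors, was the exception. Its cKO levels were 150.5, 152, 182 and 148 CPM, against 157 and 146 CPM in floxed and 139.8 and 141 CPM in Cre hearts. The groups overlapped, and cKO replicate 3 stood above all other libraries. The log2 fold change of 0.11 had a 95% interval from -0.09 to 0.32 (adjusted p = 0.321, quasi-likelihood test of edgeR, Benjamini-Hochberg adjusted), so a fall of the size seen in Esrrg or Esrrb lies outside that interval. Over 20 alternative analyses its log2 fold change ran from 0.05 to 0.24, and none called it.

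Nrip1 (chr16:76287400-76373827), the corepressor that limits oxidative genes in muscle and fat, fell with the genes it opposes. The cKO hearts held 14.5, 10.97, 13.7 and 15.7 CPM, against 21.6 and 19.4 CPM in floxed and 19.7 and 23.0 CPM in Cre hearts. The groups did not overlap. The log2 fold change was -0.61 (SE 0.12, adjusted p = 0.00192, quasi-likelihood test of edgeR, Benjamini-Hochberg adjusted). Nrip1 has the longest transcript of the 10 genes (7868 bases), and when the trend of each library with transcript length and GC content was removed the difference was -0.12 (adjusted p = 0.502). The call against floxed hearts was also lost with scaling by library size alone and without floxed replicate 1 (adjusted p = 0.0974 by the same test). The call against Cre hearts was also lost without Cre replicate 2 (adjusted p = 0.0562). The length and GC correction left the other 8 calls in place, with Ppargc1a at -0.96, Esrrg at -1.73 and Ppara at -2.76.

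**Figure D2:**
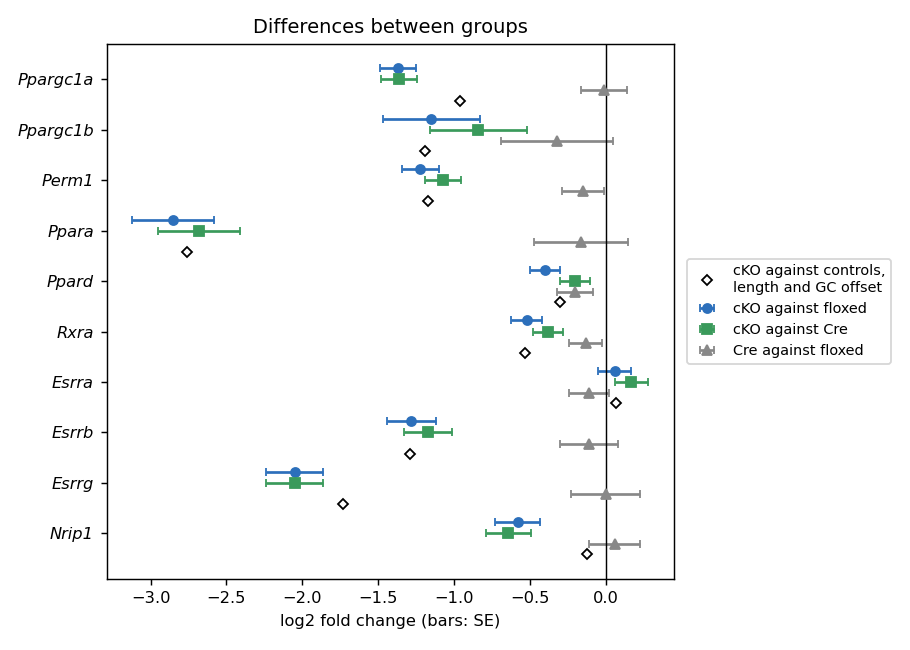
Log2 fold change of each regulator in cKO against floxed hearts, cKO against Cre hearts and Cre against floxed hearts, with bars for the SE, and open diamonds for cKO against all controls after the length and GC correction. The Nrip1 diamond lies at -0.12, and Ppara is lowest in both cKO comparisons (-2.85 and -2.68).

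The same falls were read against each control by itself, with the same cKO libraries in both comparisons. Against floxed hearts 9 regulators fell (23.1% of tested genes did), with a median of -1.19, and against Cre hearts 7 fell (22.8% of tested genes did), with a median of -0.95. By this edgeR test Ppargc1b and Ppard were the members called against floxed hearts and not against Cre hearts, and DESeq2 called 8 against Cre hearts. Between the Cre and floxed hearts 0 of the 10 regulators passed the adjusted quasi-likelihood test of edgeR, 0 had an unadjusted p under 0.05 and 0 passed in DESeq2, against 0.0981% of tested genes called. Their log2 differences between the controls ran from -0.32 for Ppargc1b to 0.06 for Nrip1. With 2 hearts a group such differences were not resolved: the 95% interval for Ppargc1b ran from -1.16 to 0.53. Without floxed replicate 1 the count against floxed hearts was 6, as Ppargc1b, Ppard and Nrip1 missed the threshold.

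Levels of different genes can be compared only per length, so CPM was divided by the kilobases of merged exons. On that scale, in control hearts, Perm1 was most abundant (78.0 ± 6.43 CPM per kb, SD, n = 4), followed by Esrra (33.3 ± 1.74), Ppargc1a (15.4 ± 0.686) and Rxra (13.3 ± 0.827). Ppara (8.61 ± 0.892) and Esrrg (6.98 ± 0.211) came next. Ppargc1b (5.47 ± 0.855), Esrrb (4.93 ± 0.460) and Ppard (4.23 ± 0.394) were neighbours whose spreads overlap, and Nrip1 was lowest (1.83 ± 0.147). In cKO hearts Esrra (36.0 ± 3.59 CPM per kb) and Perm1 (35.3 ± 3.79) were level, and Rxra (9.69 ± 0.555) stood above Ppargc1a (5.98 ± 0.831). Ppara dropped to 1.27 ± 0.468 CPM per kb, beside Nrip1 at 1.20 ± 0.176. The order depends on the length used: per kb of the longest transcript, Esrra stood at 63.5 and Perm1 at 35.3 in cKO hearts, and in controls Ppard (8.53) stood above Esrrg (8.07).

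The balance within the families differed between the genotypes. Within the PPARs the ratio of Ppara to Ppard per kb was 1.97 to 2.15 in the 4 control hearts and 0.206 to 0.508 in the 4 cKO hearts. Ppara thus outweighed Ppard in every control and was the lesser in every cKO heart on this length measure. The merged exons of Ppard hold 7514 bases and its longest transcript 3726 bases. With the longest transcript as length the mean ratio was 1.13 in controls and 0.208 in cKO hearts. Of the summed estrogen-related receptor level per kb, Esrra made up 73.7 ± 1.05% in controls and 90.5 ± 1.59% in cKO hearts (SD, n = 4 each). The Esrrg share was 15.5 ± 0.575% in controls and 4.23 ± 1.10% in cKO hearts, and the Esrrb share was 10.9 ± 0.788% and 5.25 ± 0.557%. The summed level of the 3 receptors overlapped between the groups, at 42.9 to 48.0 CPM per kb in controls and 36.9 to 45.9 in cKO hearts. The ratio of the coactivator Ppargc1a to the corepressor Nrip1 was 8.01 to 8.93 in controls and 3.83 to 5.87 in cKO hearts. Perm1 relative to Ppargc1a was 4.80 to 5.43 in controls and 5.57 to 6.28 in cKO hearts. These ratios follow from the levels already given and were not tested separately.

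**Figure D3:**
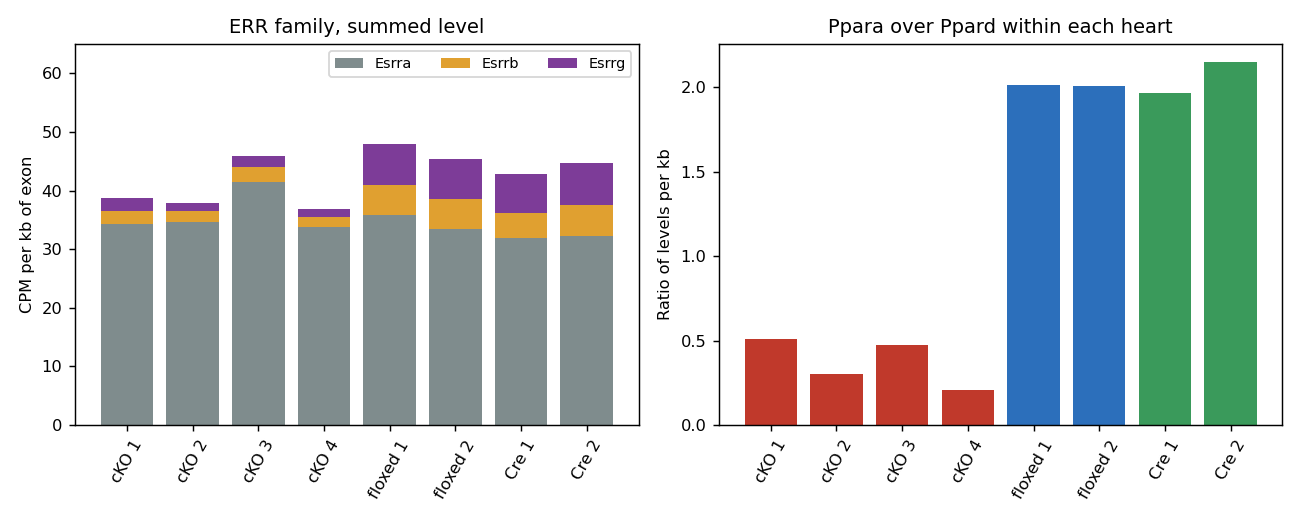
Left, stacked bars of the Esrra, Esrrb and Esrrg levels in CPM per kb of exon in each of the 8 libraries, and right, bars of the ratio of Ppara to Ppard per kb. Esrra makes up 88.4% to 91.8% of the stack in cKO hearts and 72.2% to 74.5% in controls.

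Around the regulators, 17 partners and relatives were tested, of which 10 fell and 4 rose, with a median of -0.38 (all tested genes, 0.04; 26.5% fell and 25.6% rose). Lpin1, a phosphatidate phosphatase that also coactivates Ppara together with PGC-1alpha, fell from 176 ± 10.96 to 79.4 ± 5.93 CPM (log2 fold change -1.15, adjusted p = 1.74e-05, quasi-likelihood test of edgeR, Benjamini-Hochberg adjusted). Coactivators and corepressors fell side by side: the coactivators Ncoa1 (-0.93) and Ncoa6 (-0.68), and the corepressor Ncor1 (-1.02), which brings histone deacetylase to unliganded receptors. The acetyltransferase Crebbp (0.07) did not pass. The genes that rose were Pparg (0.85), the fat cell PPAR, with Rxrb (0.28), Ncoa3 (0.38) and the acetyltransferase Kat2a (0.40). Pparg stood at 8.21, 8.60, 11.8 and 11.8 CPM in cKO hearts, 4.97 and 4.22 CPM in floxed and 5.81 and 7.97 CPM in Cre hearts. Its highest values were in cKO replicates 3 and 4, and without them its log2 fold change was 0.58 (adjusted p = 0.0231). Of the retinoid X receptors, Rxrg (-0.47) and Rxra were called lower and Rxrb higher in this comparison. The number of the list that rose depended on the control and the setting. Against floxed hearts alone 9 fell and 1 rose, and against Cre hearts alone 9 fell and 4 rose. With the length and GC correction, or without cKO replicates 3 and 4, 9 fell and 3 rose.

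Of 20 genes for signals that act on PGC-1, 19 were tested and Prmt1 was not analysed here. In cKO hearts 14 fell and none rose, with a median of -0.59 (26.5% and 25.6% of all tested genes fell and rose). Prkaa2, the main catalytic subunit of AMP-activated kinase in heart and skeletal muscle, went from 152 ± 8.00 to 36.1 ± 10.6 CPM, a 4.22-fold fall (log2 fold change -2.08, adjusted p = 4.44e-05, quasi-likelihood test of edgeR, Benjamini-Hochberg adjusted). Mef2a, a muscle factor that acts on the Ppargc1a promoter, fell as well (-0.81). Of the genes that shorten the life of PGC-1 proteins, Gsk3b (-1.20), a kinase that marks PGC-1alpha for destruction, and Rnf34 (-0.68), a ubiquitin ligase for it, fell. Fbxw7 (-0.26, adjusted p = 0.0754), part of another ubiquitin ligase for it, did not pass. The calcineurin subunit Ppp3ca (-0.03) and the p38 kinase Mapk14 (-0.22, adjusted p = 0.0515) did not pass. The list thus held both activators and inhibitors of PGC-1 among the genes that fell. Under upper-quartile scaling 13 fell and 1 rose.

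Among 31 PPAR target genes, 14 fell, 1 rose and 16 did not pass, with a median of -0.34 (26.5% and 25.6% of all tested genes fell and rose). Upper-quartile scaling gave 12 lower and 5 higher, and scaling by library size alone 11 and 5. The calls with the smallest p were steps of fatty acid oxidation and uptake. Acadm, the medium-chain acyl-CoA dehydrogenase, fell from 1031 ± 49.9 to 384 ± 81.9 CPM (log2 fold change -1.43). Etfdh (-1.35), which passes electrons from that oxidation to ubiquinone, Acsl1 (-1.29), which activates long-chain fatty acids, and the lipoprotein receptor Vldlr (-1.12) fell in the same comparison. The fatty acid carrier Fabp3 (0.14) and the isomerase Ech1 (0.15) did not pass, and their transcripts are short (823 and 1267 bases). After the length and GC correction both were called lower, Fabp3 at -0.46 and Ech1 at -0.30, and the list counted 19 lower and 1 higher. The 1 gene that rose was Angptl4, an inhibitor of lipoprotein lipase, at 1.71 (SE 0.42, adjusted p = 0.0102, quasi-likelihood test of edgeR, Benjamini-Hochberg adjusted). Angptl4 held 4.31, 7.46, 17.6 and 8.80 CPM in cKO, 1.37 and 1.33 CPM in floxed and 5.999 and 6.81 CPM in Cre hearts. Its cKO and Cre values overlap, and without cKO replicates 3 and 4 its log2 fold change was 1.00 (adjusted p = 0.00855). Against Cre hearts alone, or with the controls pooled, 0 genes of the list were called higher.

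Of the 28 targets shared by the estrogen-related receptors and PGC-1, 16 fell and 4 rose, with a median of -0.48 (26.5% and 25.6% of all tested genes fell and rose). The mitochondrial fusion gene Mfn2 (-1.14), the complex I subunit Ndufs1 (-1.31) and the citric acid cycle enzymes Ogdh (-1.15) and Sdha (-1.29) led the falls. Sdha went from 1470.4 ± 54.7 to 602 ± 109.8 CPM. The 4 that rose are respiratory chain and transport genes: Cox5a (0.45), the nucleotide carrier Slc25a4 (0.34), Sdhb (0.31) and Cyc1 (0.25). Of the complex II subunits listed, Sdha and Sdhd (-0.47) were lower and Sdhb higher. Atp5b (-0.21) and the mitochondrial creatine kinase Ckmt2 (0.14) did not pass. The number that rose depended on the setting. It was 8 under upper-quartile scaling (15 fell), 6 by library size alone (14 fell) and 2 with the length and GC correction (20 fell). It was 1 without cKO replicates 3 and 4 or with the replicate block (15 fell in each). The block also takes cKO replicates 3 and 4 out of the comparison, so those settings are not separate checks. Against floxed hearts alone 15 fell and 1 rose.

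In the arm that controls mitochondrial DNA, the 11 genes around the nuclear respiratory factors, 6 fell and none rose, with a median of -0.53 (26.5% and 25.6% of all tested genes fell and rose). Gabpa (-0.66), the DNA-binding part of a nuclear respiratory factor, Yy1 (-0.57), a factor that recruits PGC-1alpha, the transcription factor Tfb2m (-1.07) and the mitochondrial helicase gene Twnk (-0.53) fell. The polymerases Polg (-0.06) and Polrmt (-0.10) did not pass, nor did Nrf1 itself (0.02). After the length and GC correction 7 fell and 2 rose.

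**Figure D4:**
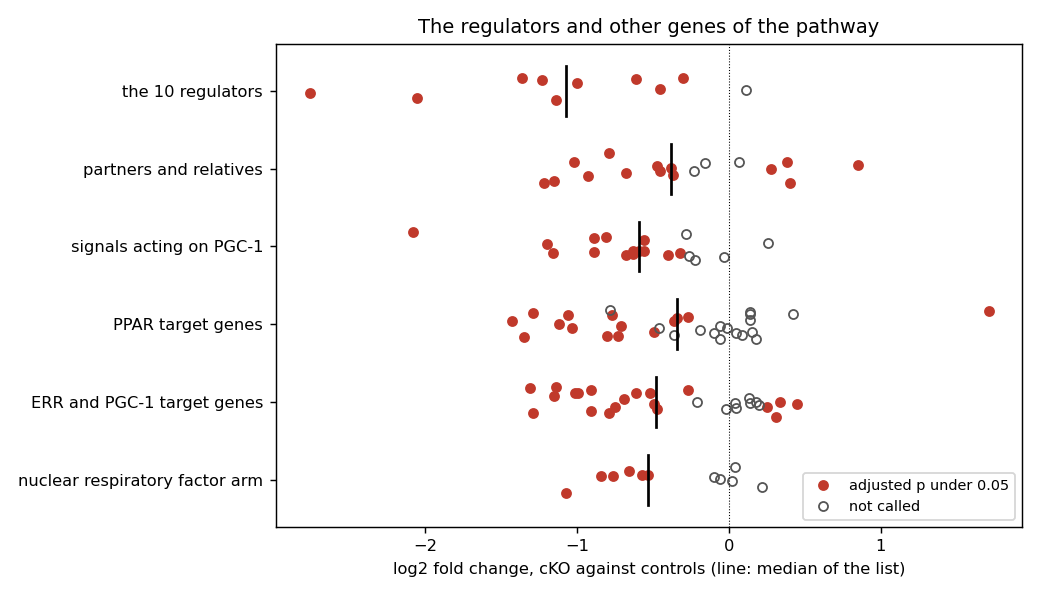
Log2 fold change in cKO hearts against controls for every tested gene of the 5 lists and for the 10 regulators, 1 point per gene, filled where the adjusted p was under 0.05, with a line at each median. The medians run from -0.34 for the PPAR targets to -0.59 for the signals, and the regulators lie lower at -1.07.

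Brown and white fat genes varied between libraries of the same genotype. Ucp1, the brown fat uncoupling protein, held 7.31, 0.692, 74.8 and 79.8 CPM in cKO hearts, 0.214 and 0 CPM in floxed hearts and 20.2 and 27.7 CPM in Cre hearts. Adipoq, made by fat cells, held 4.16, 2.47, 14.3 and 16.2 CPM in cKO hearts, 2.06 and 3.93 CPM in floxed and 5.999 and 6.91 CPM in Cre hearts. Both were highest in cKO replicates 3 and 4 and next highest in the Cre hearts. These genes were singled out after their values were seen. Brown fat itself expresses Ppargc1a, Ppara and Esrra. Without cKO replicates 3 and 4 the regulators called were again 9 against all controls, 9 against floxed hearts and 7 against Cre hearts. In that fit 3540, 3098 and 3131 of 14888 tested genes were called lower in the same comparisons. Ppara then stood at -2.68, Esrrb at -1.27, Ppargc1a at -1.27 and Perm1 at -1.12.

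**Figure D5:**
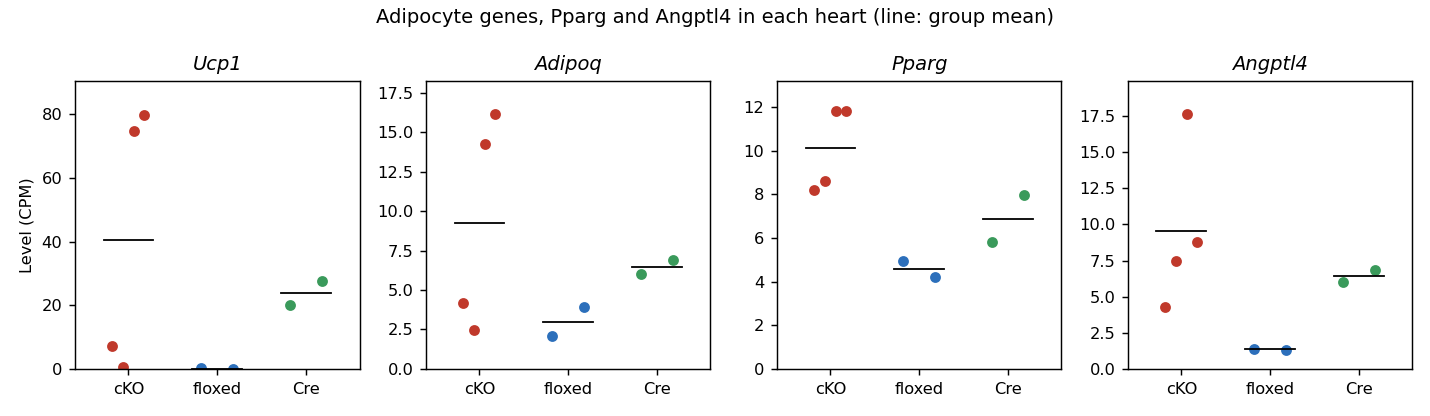
Levels of the fat cell genes Ucp1 and Adipoq beside Pparg and Angptl4 in each of the 8 libraries, in CPM with the axis from 0 and a line at each group mean. Ucp1 reaches 74.8 and 79.8 CPM in cKO replicates 3 and 4 and is listed at 0 in floxed replicate 2.

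The genes nearest in pattern to the regulators were found by the Euclidean distance between centred log2 CPM values over the 8 libraries, so a small distance means parallel levels in these hearts. Nearest to Ppargc1a were Hipk3 (distance 0.117), Ckap5 (0.122) and Pja2 (0.159), and nearest to Perm1 were Susd6 (0.137), Wdr7 (0.145) and March6 (0.146). Ppara had no neighbour as close: Taco1 (0.671), Ipo7 (0.683) and Adra1a (0.697) were its nearest. Those of Esrrg were Ubxn2a (0.272), Eif4ebp2 (0.309) and Lbh (0.327). Near Esrra lay Acaa2 (0.142) and Ubac2 (0.165), neither of which passed the test in cKO hearts. None of these neighbours is itself a member of the group.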

How the data were processed

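Whole-heart RNA libraries of 8 mice (4 cKO, 2 floxed, 2 Cre) were compared. The authors deposited expected counts per gene (estimated, 71.95% to 76.34% of values whole within 1e-06), which were rounded to whole numbers because the planned count test needs them. In the submitters' processing notes STAR 2.5.1b, DESeq2, mm10 and GRCm38 are listed without their roles. How reads were counted, on which annotation and whether by strand was not given in the sources used here, so reads of overlapping genes cannot be told apart. Symbols, positions and lengths came from GENCODE M21 (GRCm38), and promoters from RefSeq (GRCm38.p6).

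The table was fitted whole in edgeR 4.0.16 (R 4.3.3) with TMM scaling, filterByExpr, the robust quasi-likelihood test and Benjamini-Hochberg adjustment over 15289 genes, with 3 group means (5 residual degrees of freedom), and called at an adjusted p under 0.05. For all controls together, the floxed and Cre group means were weighted equally. CPM used TMM library sizes. Intervals are at 95%.

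The members and gene lists were chosen with earlier results of these data known. Named genes were the members, Elmsan1, from each of 5 lists the 4 called genes with the smallest p and the 2 most abundant genes that did not pass, and the 3 nearest genes in pattern for each member, with predicted genes left out. Some genes that this rule names are not reported here. The genes of a list that rose, and genes named for fat cells, were added after their values were seen.

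Alternatives were other scalings, DESeq2 1.42.0, limma voom 3.58.1, other filters, a replicate block, pooled controls, each comparison fitted by itself, a fold threshold, leaving out each library, and a length and GC correction (99.5% of tested genes had values). Leaving out cKO replicates 3 and 4 was chosen after seeing the data. On simulated data for cKO against controls, with 15289 genes, 72.5% of 102 genes changed 2-fold and 87.8% of 98 genes changed 4-fold were called. There 17 unchanged genes were called as well. Far fewer genes changed in the simulation than were called in these hearts (52.1%). The adjustment depends on that share, so the simulated rates do not carry over to the results above.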

Additional observations from a re-analysis of the deposited data

Results flagged for a closer look

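Among 40 groups of 4 hearts checked, 3 held a value far from the other 3, and chance flags about 1 in 20 such groups. Esrra stood at 182 CPM in cKO replicate 3, against 148 to 152 CPM in the other cKO hearts. Crebbp stood at 32.5 CPM in cKO replicate 3, against 35.6 to 36.2 CPM in the others. Mapk14 stood at 66.1 CPM in cKO replicate 2, against 56.4 to 57.2 CPM in the others.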

How the results depend on the processing

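Counts of called regulators and of called list genes stayed within 1.5 times of the values reported under every scaling, tool, filter and design tried. The exception was the added demand for an absolute log2 fold change of at least 1, which by its construction left 5 members against all controls, 3 partners and relatives, 3 signals, 7 PPAR targets, 5 targets of the estrogen-related receptors and 1 gene of the nuclear respiratory factor arm. Leaving out 1 library gave 8 to 9 members against all controls, 6 to 9 against floxed hearts, 6 to 8 against Cre hearts and 0 to 0 between the controls. The lists gave 11 to 14 partners and relatives, 13 to 15 signals, 13 to 17 PPAR targets, 16 to 20 targets of the estrogen-related receptors and 6 to 6 genes of the nuclear respiratory factor arm. Upper-quartile scaling and library size alone moved the median of all genes by 0.11 and 0.13 and changed the split of lower to higher calls from 4050 and 3909 to 3351 and 4873, and to 2981 and 4753. Signs changed for values near 0 that had not passed, and the cause was not tested. Between Cre and floxed hearts these were Ppargc1a (0.02 under upper-quartile and library-size scaling, -0.06 to 0.05 leaving out 1 library), Esrrb (-0.24 to 0.02 leaving out 1 library), Nrip1 (-0.03 to 0.15 leaving out 1 library) and Esrrg. Esrrg gave 0.03 under both scalings, 0.00 with no filter, with the replicate block and without cKO replicates 3 and 4, 0.01 with the filter at 1 CPM and with those groups alone, and -0.02 to 0.03 leaving out 1 library. Against floxed hearts Esrra was -0.01 to 0.10 leaving out 1 library (-0.01 without cKO replicate 3) and -0.00 with the replicate block. Against all controls the upper-quartile, library-size and length and GC settings gave 0.09, 0.10 and 0.24 for Ppp3ca, and 0.05, 0.07 and 0.21 for Polg. Leaving out 1 library gave Ppp3ca -0.08 to 0.04. Polrmt was 0.01 and 0.03 under the first pair of settings. The length and GC correction gave -0.46 for Fabp3, -0.30 for Ech1 and -0.10 for Ckmt2. Deviations of hearts with the same number in the sample titles were weakly correlated (0.133, -0.105, -0.108, -0.002, -0.045 and -0.045). With 2 hearts in a control group their deviations mirror each other, so these values cannot show whether hearts shared a litter or day. The library names number the floxed hearts 2 and 3, and a pairing by those names was not tested. With the replicate block the calls were 9 members against all controls, 9 against floxed hearts, 7 against Cre hearts and 0 between controls, with 10 partners, 13 signals, 18 PPAR targets, 16 receptor targets and 6 genes of the nuclear respiratory factor arm. Numbers 3 and 4 occur only among the cKO hearts, so the block fits those hearts by themselves and they do not inform the comparisons. It is thus close to leaving out cKO replicates 3 and 4 and is not a separate check. Both settings gave -0.58 for Ppargc1b. With 2 hearts per control group, small differences between controls cannot be resolved at this depth.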
